A study of Homo sapiens with 6 samples.

Results

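Mitochondrial import, dynamics and proteolysis were followed here through 50 listed genes for the translocases of the outer and inner membrane, the enzymes that mature and degrade imported proteins, and the factors that shape and divide the organelle. A gene was represented by the probe set that carries its symbol alone, and by the brightest such probe set over the arrays. Of the 50 genes, 46 were measured in this way, each by 1 probe set, out of 18836 distinct genes tested. TOMM6, TIMM23 and TIMM10B lay only on probe sets shared with another symbol and were not analysed here. DNAJC15 lay at 3.28 to 3.39 on the 6 arrays, under the filter on low signal at 3.47, and was not tested. RNA came from OV2008 cells, an established human line labelled as ovarian cancer, taken 3 days after transfection with a miR-328-3p mimic (3 arrays) or with a negative control miRNA (3 arrays). Both groups were transfected cells grown in the same medium, and no untransfected group was analysed here. The mimic samples carry the control miRNA in their description, and their titles and source names, which name miR-328, were followed.

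Most mitochondrial proteins are encoded in the nucleus, made in the cytosol and imported. The TOM complex of the outer membrane admits them, and SAM, TIM22 and TIM23 then sort them into the outer membrane, the inner membrane and the matrix. Proteases of the matrix and the inner membrane remove damaged or unassembled proteins, and dynamin-like GTPases fuse and divide the organelle. The transfected miRNA is shown because its seed is what pairs with target mRNAs. The mature sequence is from RefSeq, where it lies at chr16:67202327-67202348 on the minus strand of GRCh38.p14. It is 22 nucleotides long, and capitals mark its seed, bases 2 to 8.
hsa-miR-328-3p: cUGGCCCUcucugcccuuccgu

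The table gave 1 value per probe set and array, with array medians of 4.16 to 4.23. The log2 scale was inferred from the values and is not stated, and the highest of them, 19.93, exceeds the usual log2 range of an array scanner. A value is a level of signal and each difference below is mimic minus control on this log2 scale, so that folds hold on this scale only. Over the tested probe sets, arrays of the same group correlated at 0.9954 to 0.9969 and arrays of different groups at 0.9921 to 0.9941. Nothing in the labels says that samples were separate cultures, so each p-value reflects only how far these arrays scatter, and that scatter may be technical. All 6 measured epithelial markers lay above the median of the transcript clusters, 4.14, and their mean level was 12.86 to 12.89 in the control arrays and 13.06 to 13.13 in the mimic arrays. Of these, CDH1 rose by 0.66 (limma adjusted p = 0.000944), and KRT8, KRT18 and KRT19 rose by 0.20 to 0.32. CDH3 fell by 0.19 (limma adjusted p = 0.0260), and EPCAM, at 0.07, did not pass. The 3 measured squamous markers averaged 12.24 to 12.27 in the control arrays and 12.02 to 12.10 in the mimic arrays. Their control means were 17.03 for KRT5, 14.59 for DSG3 and 5.14 for KRT14. Among them DSG3 fell by 0.88 (limma adjusted p = 8.6e-05), while KRT14 stood at 0.31 and KRT5 at -0.03 and neither passed. Of 5 ovarian carcinoma markers, PAX8 at 4.33 and SOX17 at 4.18 had control means above the median of the transcript clusters. SOX17 had a mimic mean of 4.07 below it, and WT1, MUC16 and MSLN were below it in both groups. KRT5 and DSG3 thus lay far above every ovarian carcinoma marker, and the labelled origin of the line was not tested. Of 5 measured markers each, 1 fibroblast, 1 leukocyte and 2 endothelial markers had a mean over the arrays above it. The endothelial mean lay at 4.01 to 4.02 in the control arrays and at 3.87 to 3.91 in the mimic arrays, the leukocyte mean lay at 3.49 to 3.56 and at 3.595 to 3.62, and the fibroblast ranges overlapped. These means include PTPRC, CD14, LYZ, LUM, PDGFRA, PECAM1 and KDR, which lay under the low-signal filter and were not tested. All measured leukocyte markers had higher means in the mimic arrays, and CD14 differed most. Among the endothelial markers CDH5 differed most, with a fall of 0.68 (limma adjusted p = 0.00247). CLDN5 and KDR had lower means in the mimic arrays, and PECAM1 and VWF had higher means. The part of these shifts in the results was not tested, nor was the presence of leukocytes, endothelial cells or fibroblasts. In bulk RNA, fewer cells of a type and less RNA per cell cannot be told apart.

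In the mimic arrays the matrix protease LONP1, the matrix nucleotide exchange factor GRPEL2 and the co-chaperone TOMM34 rose. TOMM22 fell as 1 of 8 TOM members, SAMM50 and MTX2 as 2 of 3 SAM members and TIMM22 as 1 of 2 TIM22 members. The small TIM chaperones TIMM8A and TIMM8B fell as 2 of 5. The inner membrane proteases YME1L1, AFG3L2 and OMA1 and the MICOS subunits CHCHD3 and IMMT also fell. No fusion or fission member passed, of 6 measured. Over all genes 7.21% rose and 10.8% fell, and these small classes were not tested against those shares. The changes were small, from 1.13-fold to 1.63-fold. Of the 14 calls, 8 held in every fit that left out an array, and those of MTX2 and IMMT held in none.

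Of the 46 members, 14 passed a limma adjusted p of 0.05, or 30.4%, against 18.0% of all genes tested. The 3 that rose are 6.52% of the members, against 7.21% of all genes. The 11 that fell are 23.9%, against 10.8% of all genes. The median member stood at the 84.8th percentile of signal among genes. Among the 3953 genes within the members' interquartile range of signal, from 7.88 to 11.17, 15.3% rose and 24.5% fell. The share of all 46 members that fell lay near the second of these, and the share that rose lay below the first. This signal range was chosen after the values were seen and covers only the middle of the members' own range, and the part of signal in the shares was not tested. The median difference was -0.12 over the members, 0.01 over all genes and -0.05 over the genes of like signal. A total of 37 members lay below 0 and 9 above it. The highest mimic array was below the lowest control array for 24 members, or 52.2%, against 22.4% of all genes and 40.2% of genes of like signal. The lowest mimic array was above the highest control array for 4 members, or 8.70%, against 19.2% and 26.4%. In either direction the groups lay apart for 28 members, or 60.9%, against 41.6% of all genes and 66.6% of genes of like signal. No test of the list was made.

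**Figure D1:**
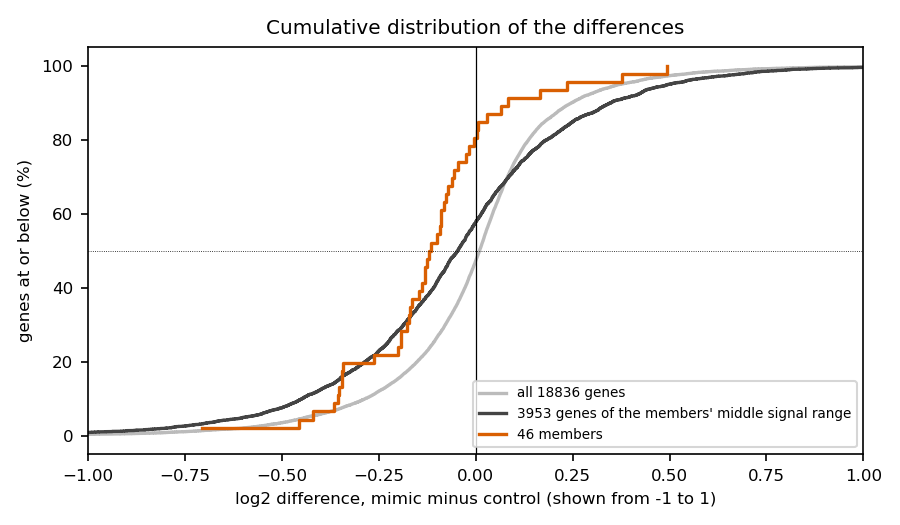
Cumulative percentage of genes (vertical axis) at or below each log2 difference, mimic minus control (horizontal axis), for all 18836 genes, for 3953 genes within the members' interquartile signal range and for the 46 members. The members' line crosses 50% at -0.12, against -0.05 for genes of like signal and 0.01 for all genes.

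The median deviation of the members from their control means was 0.02, -0.01 and -0.01 on the control arrays 1, 2 and 3. On the mimic arrays 1, 2 and 3 it was -0.10, -0.12 and -0.13. The mimic arrays thus lay close together and below every control array.

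The TOM complex is the general entry gate, with receptors that bind precursors and a channel that passes them. Among its 8 measured members TOMM34 rose, TOMM22 fell and 6 did not pass, where 7.21% of all genes rose and 10.8% fell. The 8 members had a median difference of -0.12. TOMM22, the central receptor that organises the complex, read 12.47, 12.53 and 12.49 in the control arrays and 12.27, 12.25 and 12.18 in the mimic arrays. All mimic arrays were lower, and TOMM22 fell by 0.26 on the log2 scale (SE 0.0410, limma adjusted p = 0.00913). TOMM34, which despite its name works largely in the cytosol as a co-chaperone of HSP70 and HSP90, read 11.94, 11.87 and 11.87 in the control arrays and 12.13, 12.13 and 12.12 in the mimic arrays. The mimic arrays were all higher, by 0.23 (SE 0.0382, limma adjusted p = 0.0107). TOMM34 did not pass without control array 3 (limma adjusted p = 0.0540) or without mimic array 2 (0.0544).

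The other TOM members did not pass. The receptor TOMM20 stood at -0.12 (95% confidence interval -0.21 to -0.02), the receptor TOMM70 at -0.14 and the channel protein TOMM40 at -0.12 (-0.22 to -0.02). The small subunits TOMM5 and TOMM7 stood at -0.13 and -0.10. For TOMM20, TOMM40 and TOMM5 each mimic array was lower than each control array. The groups lay apart in this direction for 22.4% of all genes and 40.2% of genes of like signal. Of all members that did not pass, 13 had groups apart with the mimic lower and 1 with the mimic higher. TOMM40L, a paralog of the channel, had low signal at 4.75 in both groups and a difference of 0.01 (-0.16 to 0.17). Whether its low signal hid a change was not tested.

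The SAM complex inserts beta-barrel proteins into the outer membrane. Of 3 members 2 fell and 1 did not pass, where 10.8% of all genes and 24.5% of genes of like signal fell. The median difference of the 3 was -0.19. SAMM50, its barrel-shaped core, read 10.94, 10.94 and 10.91 in the control arrays and 10.63, 10.56 and 10.57 in the mimic arrays. The groups lay well apart, and SAMM50 fell by 0.34 (SE 0.0397, 1.27-fold, limma adjusted p = 0.00282). MTX2, a metaxin on its cytosolic face, went from 10.91 ± 0.0261 (SD, n = 3) to 10.71 ± 0.0391 (SD, n = 3) at a limma adjusted p of 0.0290. No fit on 5 arrays kept its call. The limma adjusted p was lowest when mimic array 2 was dropped (0.0637) and highest when mimic array 1 was (0.0975), and it was 0.0797 with the replicate number as a block. The other metaxin, MTX1, stood at -0.02 (-0.12 to 0.08). Within arrays the log2 ratio of MTX1 to MTX2 was higher in every mimic array, by 0.18, at an exact permutation p of 0.1, the smallest that 3 against 3 arrays allow (0.18 after adjustment over 9 pairs).

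**Figure D2:**
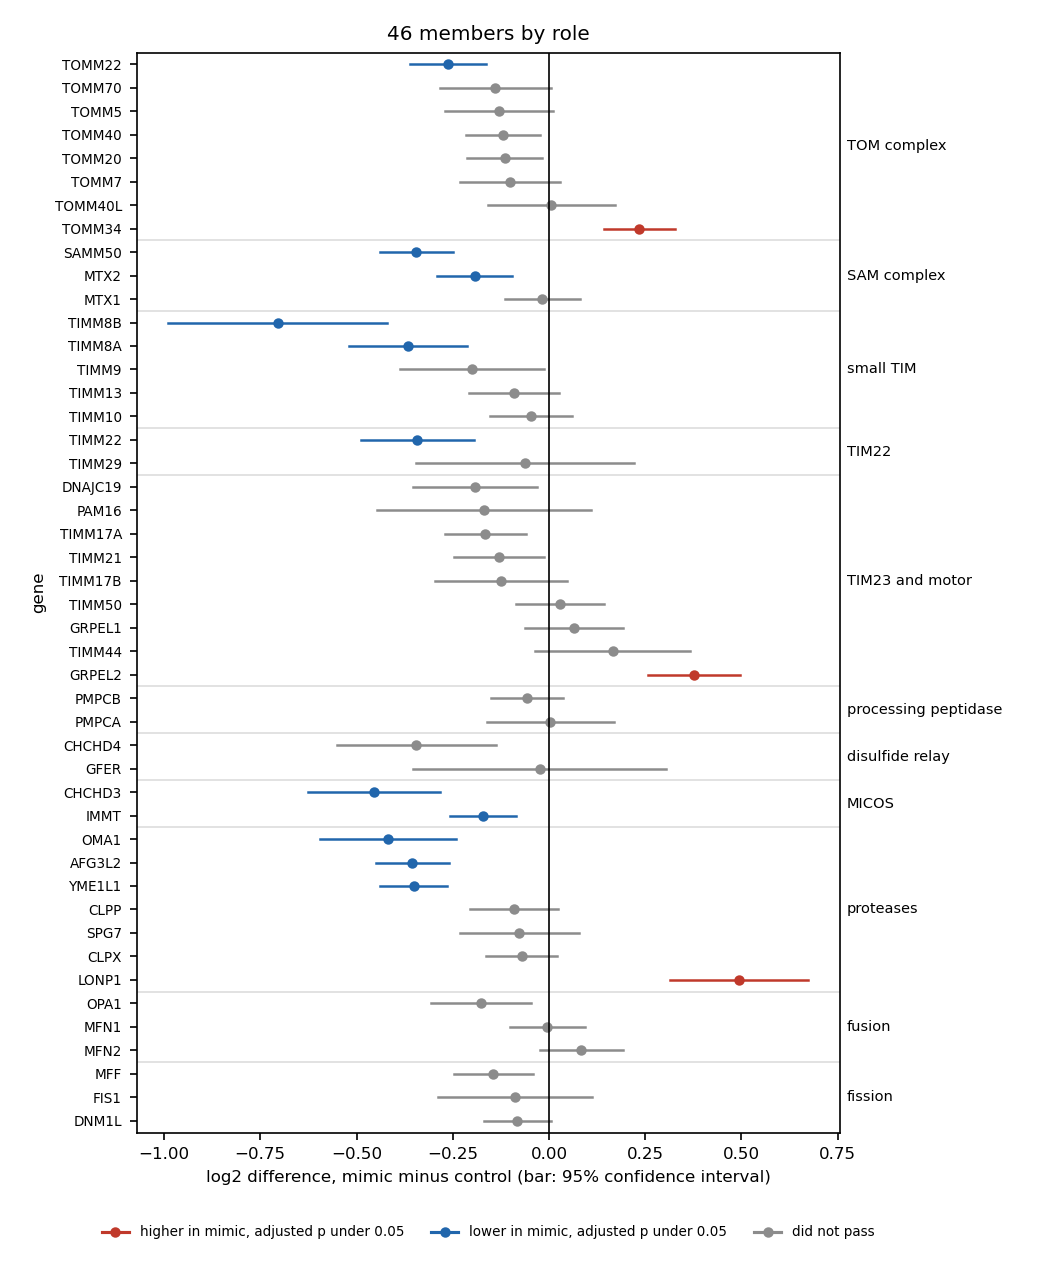
Log2 difference, mimic minus control (horizontal axis), of each of the 46 members (vertical axis, grouped by role), where points are estimates from 3 arrays per group and bars 95% confidence intervals. Blue marks the 11 members that fell, red the 3 that rose and grey the 32 that did not pass.

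Small TIM proteins are chaperones that escort hydrophobic precursors across the intermembrane space. Of 5 measured, 2 fell and 3 did not pass, where 10.8% of all genes fell. The median difference of the 5 was -0.20. TIMM8B read 10.89, 10.56 and 10.48 in the control arrays and 10.02, 9.98 and 9.80 in the mimic arrays. It had the largest fall of all 46 members, 0.71 (SE 0.118, 1.63-fold, limma adjusted p = 0.0120), with an SD of 0.220 among the 3 control arrays and a wide interval, -0.99 to -0.42. TIMM8A, whose loss causes a deafness and dystonia syndrome, read 6.94, 7.07 and 7.07 in the control arrays and 6.60, 6.72 and 6.66 in the mimic arrays. It fell by 0.37 (SE 0.0643, limma adjusted p = 0.0143) but did not pass without control array 2 (0.0516), control array 3 (0.0627) or mimic array 1 (0.0558). TIMM9 stood at -0.20, and TIMM13, the partner of TIMM8A, at -0.09 (-0.21 to 0.03). TIMM10, the partner of TIMM9, stood at -0.05 (-0.15 to 0.06).

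TIM22 inserts carrier proteins into the inner membrane. Its channel subunit TIMM22 read 9.75, 9.81 and 9.70 in the control arrays and 9.50, 9.33 and 9.40 in the mimic arrays, a fall of 0.34 (SE 0.0610, limma adjusted p = 0.0152). The groups did not overlap, but the call was lost without control array 2 (limma adjusted p = 0.0516), mimic array 2 (0.0558) or mimic array 3 (0.0503). The subunit TIMM29 lay near the array medians, at 4.05 in the control arrays, and its interval of -0.35 to 0.22 leaves the direction unsettled.

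TIM23 and its import motor carry precursors with a presequence into the matrix. Among its 9 measured members GRPEL2 rose and 8 did not pass, where 7.21% of all genes rose and 10.8% fell. The 9 members had a median difference of -0.12. GRPEL2, an exchange factor for the matrix HSP70, read 11.03, 10.89 and 10.995 in the control arrays and 11.31, 11.37 and 11.37 in the mimic arrays. Every mimic array was above every control array, and the rise was 0.38 (SE 0.0499, 1.30-fold, limma adjusted p = 0.00486). GRPEL1, the paralog with the same biochemical role, read 10.09, 9.99 and 10.06 in the control arrays and 10.04, 10.17 and 10.14 in the mimic arrays. Its groups overlapped, and its difference was 0.06 (-0.06 to 0.19). The log2 ratio of GRPEL1 to GRPEL2 within an array ran from -0.94 to -0.89 in the control arrays and from -1.27 to -1.20 in the mimic arrays. This ratio changed by -0.31, with an exact permutation p of 0.1, the smallest possible, and 0.18 after adjustment.

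Among the other TIM23 members, the channel-lining TIMM17A came nearest to passing. It read 10.35, 10.25 and 10.28 in the control arrays and 10.15, 10.11 and 10.13 in the mimic arrays, at -0.16 (limma adjusted p = 0.0646). Its paralog TIMM17B stood at -0.12, and the pair did not part within arrays (exact permutation p = 0.6). The J-domain protein DNAJC19 and the J-like protein PAM16, which together control the HSP70 of the motor, stood at -0.19 and -0.17. TIMM21, which links the translocase to respiratory chain assembly, stood at -0.13. The motor scaffold TIMM44 stood at 0.17 (-0.04 to 0.37) and the receptor TIMM50 at 0.03 (-0.09 to 0.14).

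Once inside, presequences are cut off by the processing peptidase, a dimer of PMPCA and PMPCB. PMPCA stood at 0.0035 (-0.16 to 0.17) and PMPCB at -0.06 (-0.15 to 0.04), and neither passed. Proteins of the intermembrane space are trapped by the disulfide relay of CHCHD4 and the sulfhydryl oxidase GFER. CHCHD4 read 7.69, 7.78 and 7.73 in the control arrays and 7.53, 7.22 and 7.42 in the mimic arrays. Its groups lay apart with the mimic lower, as for 22.4% of all genes. CHCHD4 stood at -0.34 (SE 0.0860) and just missed the threshold with a limma adjusted p of 0.0511. It passed when arrays were centred on their medians (0.0340), when the dimmest 50% of the clusters were left out (0.0374) and without mimic array 1 (0.0414). GFER, at 5.46 and 5.43 in the control and mimic arrays, overlapped widely (-0.35 to 0.30).

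MICOS holds the inner membrane cristae in shape, and both of its listed members fell, where 10.8% of all genes did. CHCHD3, or MIC19, read 11.48, 11.36 and 11.37 in the control arrays and 10.81, 10.99 and 11.04 in the mimic arrays. It fell by 0.46 (SE 0.0713, 1.37-fold, limma adjusted p = 0.00924). IMMT, the core subunit MIC60 or mitofilin, read 13.01, 13.01 and 12.97 in the control arrays and 12.84, 12.80 and 12.85 in the mimic arrays. Its fall of 0.17 (SE 0.0357) was smaller than that of CHCHD3, at a limma adjusted p of 0.0277. No fit on 5 arrays kept the call of IMMT, with 0.0587 when mimic array 3 was dropped and 0.119 when mimic array 2 was, nor did the replicate block (limma adjusted p = 0.0854).

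**Figure D3:**
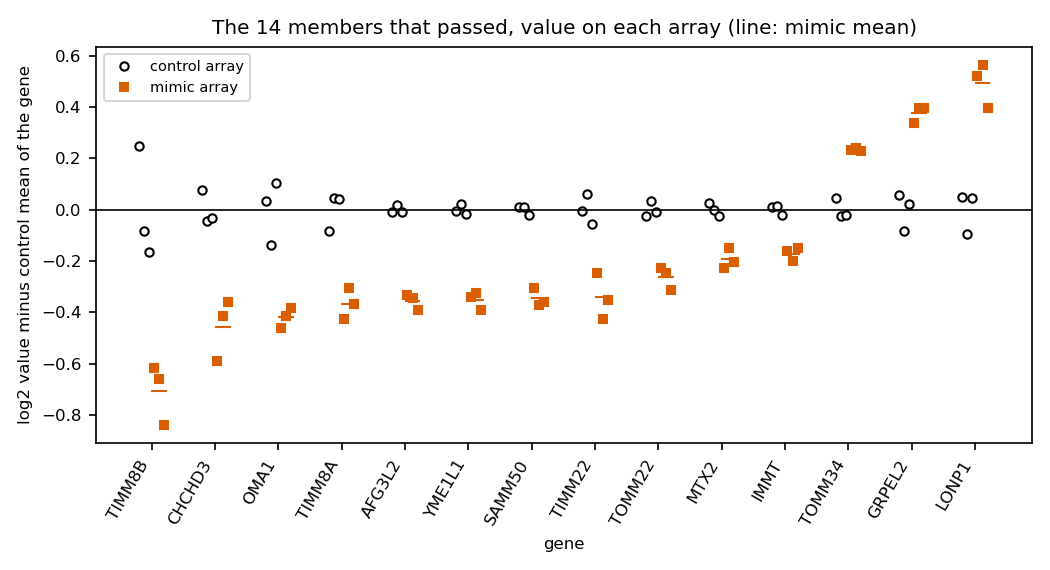
Value of each of the 14 members that passed, as the log2 value minus the gene's own control mean (vertical axis), for the 3 control arrays (open circles) and the 3 mimic arrays (squares, with a line at their mean). In every one of these genes the mimic arrays lie on one side of all control arrays, from -0.71 on average for TIMM8B to 0.49 for LONP1. The 14 were chosen on these same values, and the groups lay apart for 41.6% of all genes.

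Proteases of the matrix and the inner membrane keep the stock of imported proteins in order. Among the 7 measured here LONP1 rose, 3 fell and 3 did not pass, where 7.21% of all genes rose and 10.8% fell. The 7 members had a median difference of -0.09. LONP1, the ATP-dependent protease of the matrix, read 6.14, 6.002 and 6.14 in the control arrays and 6.62, 6.66 and 6.49 in the mimic arrays. It had the largest rise of all 46 members, 0.49 (SE 0.0748, 1.41-fold, limma adjusted p = 0.00811). The other matrix protease, formed by the peptidase CLPP and the unfoldase CLPX, did not pass in either part, at -0.09 (-0.20 to 0.02) and -0.07 (-0.16 to 0.02).

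The 3 proteases that fell are all of the inner membrane. YME1L1, the i-AAA protease that faces the intermembrane space, read 13.82, 13.85 and 13.81 in the control arrays and 13.49, 13.50 and 13.44 in the mimic arrays. It fell by 0.35 (SE 0.0368, 1.28-fold) with the smallest adjusted p of the members (limma, 0.00201). AFG3L2, a catalytic subunit of the m-AAA protease that faces the matrix, read 10.42, 10.44 and 10.41 in the control arrays and 10.09, 10.08 and 10.04 in the mimic arrays. It also fell by 0.35 (SE 0.0393, limma adjusted p = 0.00247). Its partner subunit SPG7, mutated in a spastic paraplegia, stood at -0.08 (-0.23 to 0.08). The log2 ratio of AFG3L2 to SPG7 was lower in every mimic array, with a change of -0.28 and an exact permutation p of 0.1, the smallest possible, and 0.18 after adjustment. OMA1, a stress-activated metallopeptidase that cuts OPA1, read 8.04, 7.87 and 8.12 in the control arrays and 7.55, 7.60 and 7.63 in the mimic arrays. It fell by 0.42 (SE 0.0736, limma adjusted p = 0.0143), and missed the threshold without control array 3 (0.0503), mimic array 1 (0.0583) or mimic array 2 (0.0567).

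Fusion joins outer membranes through the mitofusins and inner membranes through OPA1, and fission is driven by DNM1L, or DRP1, which is recruited by receptors such as MFF. None of these 6 genes passed the limma threshold, which 18.0% of all genes did. In the same fit 2 of them, OPA1 and MFF, had an unadjusted p under 0.05. The median difference of the 6 was -0.09. OPA1 read 12.97, 12.84 and 12.96 in the control arrays and 12.71, 12.72 and 12.82 in the mimic arrays, at -0.18 (-0.31 to -0.05, limma adjusted p = 0.0968). MFN1 stood at -0.0048 (-0.10 to 0.09) and MFN2 at 0.08 (-0.02 to 0.19). The mimic arrays were all above the control arrays for MFN2, and overlapped them for MFN1. The DRP1 gene DNM1L stood at -0.08 (-0.17 to 0.01), and FIS1, an outer membrane protein linked to fission, at -0.09 (-0.29 to 0.11). MFF stood at -0.15 (-0.25 to -0.04, limma adjusted p = 0.0860), with all mimic arrays below the control arrays, and passed only when arrays were centred on their medians (0.0447). For DNM1L and OPA1 the groups did not overlap either. Over all genes the groups lay apart with the mimic lower for 22.4% and with the mimic higher for 19.2%. The log2 ratio of MFN1 to MFN2 was lower in every mimic array, with a change of -0.09, an exact permutation p of 0.1, the smallest possible, and 0.18 after adjustment. Among the pairs not described above, the exact permutation p was 0.1 for TOMM40 to TOMM40L and 0.2 for TIMM8A to TIMM8B. It was 0.6 for PMPCA to PMPCB and 0.7 for CLPP to CLPX. Since 3 against 3 arrays allow no exact permutation p below 0.1, no pair could pass 0.05, before or after adjustment.

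Other genes of the same pathways were taken from lists written by role. Among the 48 measured there were 4 rises and 10 falls, and 34 genes did not pass. These are 8.33% and 20.8% of them, against 7.21% and 10.8% of all genes. Among the genes within the members' interquartile range of signal, 15.3% rose and 24.5% fell. The 48 genes had a median signal percentile of 70.9, and the part of signal in their shares was not tested. Their median difference was -0.10. In import and folding, HSPA9, the matrix HSP70 that GRPEL1 and GRPEL2 serve, read 15.18, 15.21 and 15.24 in the control arrays and 15.51, 15.53 and 15.51 in the mimic arrays. It rose by 0.31 (SE 0.0348, limma adjusted p = 0.00268). OXA1L, the insertase of the inner membrane, fell by 0.34 (SE 0.0507, limma adjusted p = 0.00754), and TIMMDC1, a complex I assembly factor related to the TIM17 family, by 0.28 (SE 0.0356, limma adjusted p = 0.00431). These are 1 rise and 2 falls among 17 genes measured, or 5.88% and 11.8%, against 7.21% and 10.8% of all genes.

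Among 13 other protease, scaffold and ubiquitin ligase genes, there were 2 rises and 6 falls, and 5 genes did not pass. These are 15.4% and 46.2% of them, against 7.21% and 10.8% of all genes. The shares were 15.3% and 24.5% among genes within the members' interquartile range of signal. The 13 genes had a median signal percentile of 76.4, and the part of signal was not tested. Their median difference was -0.20. The largest falls were those of membrane scaffolds. STOML2, which holds a protease hub with YME1L1 and PARL, read 13.23, 13.34 and 13.22 in the control arrays and 12.55, 12.46 and 12.40 in the mimic arrays, a fall of 0.79 (SE 0.0552, 1.73-fold, limma adjusted p = 0.000490). The prohibitins, whose rings surround the m-AAA protease, fell by 0.59 for PHB1 (SE 0.0463, limma adjusted p = 0.000744) and by 0.39 for PHB2 (SE 0.0610, limma adjusted p = 0.00949). MARCHF5, an outer membrane ubiquitin ligase, rose by 0.43 (SE 0.0441, limma adjusted p = 0.00188). CLPB, a disaggregase of the intermembrane space, rose by 0.37 (limma adjusted p = 0.0162), with calls lost in 3 of 12 other settings.

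**Figure D4:**
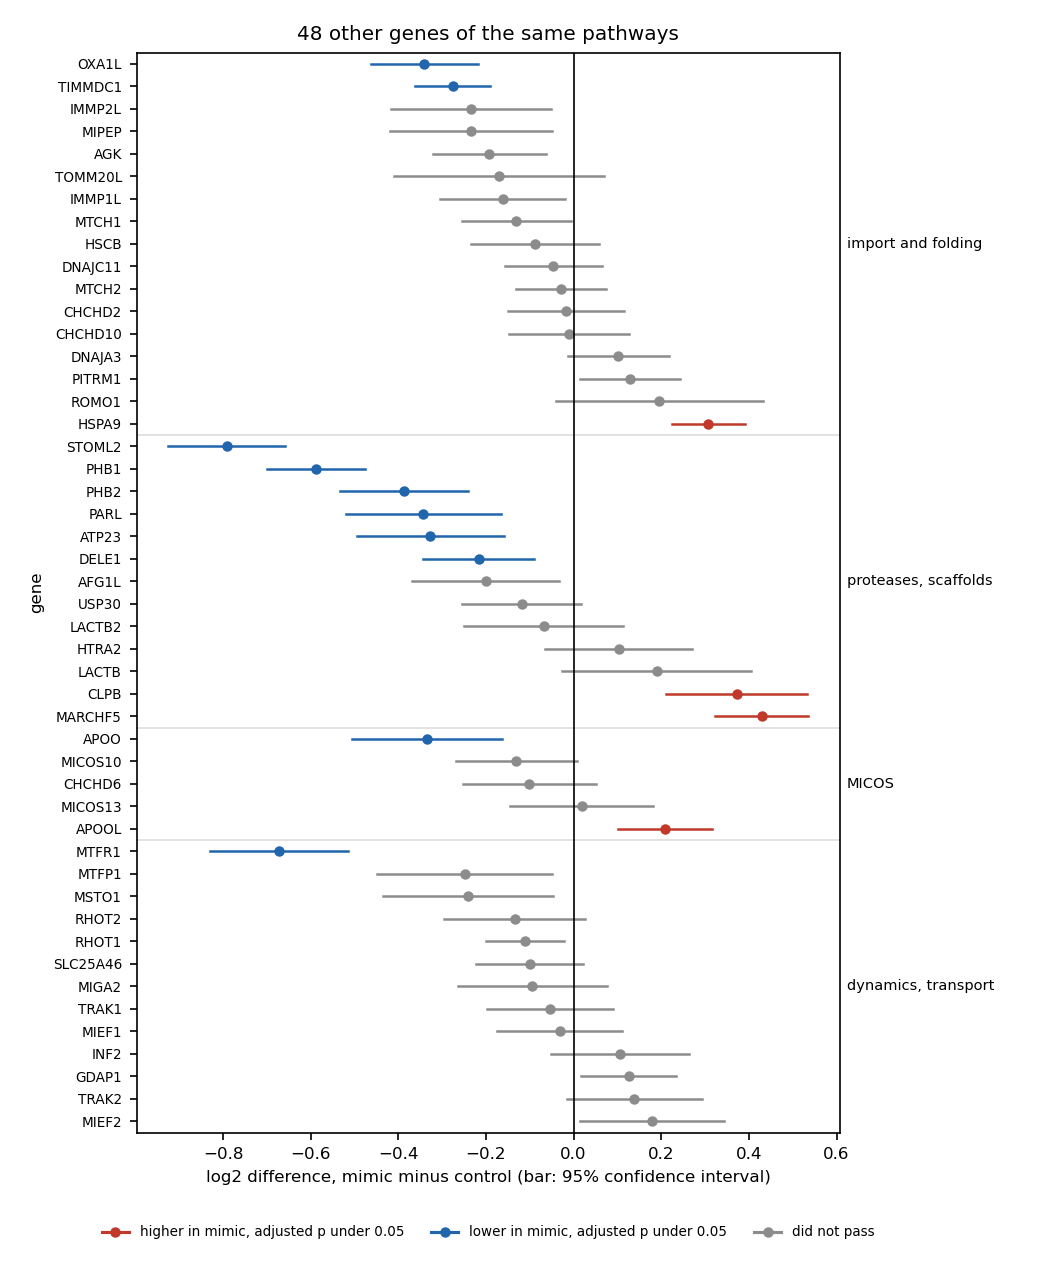
Log2 difference, mimic minus control (horizontal axis), of 48 other genes of import, proteolysis, MICOS and dynamics (vertical axis), with 95% confidence intervals from 3 arrays per group. STOML2 at -0.79 and MTFR1 at -0.67 lie farthest to the left, and MARCHF5 at 0.43 farthest to the right.

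Of 5 other MICOS genes, APOO, or MIC26, fell by 0.33 (limma adjusted p = 0.0299) and APOOL, or MIC27, rose by 0.21 (limma adjusted p = 0.0300). The call of APOO was lost in 5 of 12 other settings and that of APOOL in 9. These are 1 rise and 1 fall, or 20% each of the 5, against 7.21% and 10.8% of all genes. Of 13 other genes of dynamics and transport, MTFR1, a mitochondrial fission regulator, read 8.34, 8.31 and 8.31 in the control arrays and 7.58, 7.77 and 7.59 in the mimic arrays. It was the only one to pass, with a fall of 0.67 (SE 0.0656, 1.59-fold, limma adjusted p = 0.00157). Of the 13 genes 0% rose and 7.69% fell, against 7.21% and 10.8% of all genes.

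Sequence upstream of the start is shown for genes on either side of the comparison, because promoters of mitochondrial genes often hold sites of NRF1 and of ETS factors. RefSeq gave a promoter on GRCh38.p14 for 41 of the 46 measured members, and 250 bases before the start were searched on both strands for 6 motifs. The NRF1 core GCATGCGC was in 6 of 41, or 14.6%, against 3.93% of 13067 genes tested on the arrays and 2.82% of all 27305 promoters. The ETS core CCGGAAG was in 10, or 24.4%, against 12.8% and 8.79%. The CCAAT box was in 17, or 41.5%, against 34.5% and 33.1%. The C/EBP-ATF composite TGATGNAA was in 2 (4.88%, against 1.95% and 3.19%) and the YY1 core AAGATGGC in 1 (2.44%, against 1.61% and 1.38%). The cAMP response element TGACGTCA was in none of the 41, against 2.47% and 1.75%. No matches of different motifs overlapped in the members.

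By call, the NRF1 core was in 1 of 3 members that rose, 0 of 9 that fell and 5 of 29 that did not pass. TIMM8B and YME1L1, which also fell, had no promoter and are not among these 9. The ETS core was in 1 of 3 members that rose, 1 of 9 that fell and 8 of 29 that did not. The CCAAT box was in 0, 5 and 12 of them. These are descriptions of letters in a window, not of bound sites. The promoters below belong to LONP1 and GRPEL2, which rose, and to SAMM50 and CHCHD3, which fell. They run 5′ to 3′ and end at the base before the start, with matches in capitals. The window of LONP1 is chr19:5720453-5720702 on the minus strand and holds 4 matches to the NRF1 core, from bases -200, -198, -128 and -25, of which the first pair overlap on opposite strands. The window of GRPEL2 is chr5:149345249-149345498 on the plus strand and holds the ETS core from bases -147, -87 and -66. The windows of SAMM50, chr22:43955192-43955441 on the plus strand, and of CHCHD3, chr7:133082091-133082340 on the minus strand, each hold 1 CCAAT box, from bases -63 and -100. Other called members differ from these examples. TOMM34, which rose, and TOMM22, TIMM8A, AFG3L2 and OMA1, which fell, hold no match to any motif searched. IMMT, which fell, holds the ETS core from bases -212 and -33 and a CCAAT box from base -143. MTX2 and TIMM22 fell too and hold a CCAAT box from bases -97 and -192. TIMM22 also holds the C/EBP-ATF composite from base -82.
LONP1: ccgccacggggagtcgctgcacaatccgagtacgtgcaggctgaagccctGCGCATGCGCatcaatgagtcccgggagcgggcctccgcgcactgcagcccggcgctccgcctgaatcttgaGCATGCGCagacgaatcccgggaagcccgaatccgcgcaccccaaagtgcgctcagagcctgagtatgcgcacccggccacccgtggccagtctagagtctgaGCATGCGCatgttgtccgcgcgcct
GRPEL2: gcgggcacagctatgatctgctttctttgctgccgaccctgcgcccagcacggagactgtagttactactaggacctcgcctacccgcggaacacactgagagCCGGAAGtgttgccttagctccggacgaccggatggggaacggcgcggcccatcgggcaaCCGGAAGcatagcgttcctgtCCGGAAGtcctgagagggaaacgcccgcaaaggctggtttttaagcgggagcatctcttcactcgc
SAMM50: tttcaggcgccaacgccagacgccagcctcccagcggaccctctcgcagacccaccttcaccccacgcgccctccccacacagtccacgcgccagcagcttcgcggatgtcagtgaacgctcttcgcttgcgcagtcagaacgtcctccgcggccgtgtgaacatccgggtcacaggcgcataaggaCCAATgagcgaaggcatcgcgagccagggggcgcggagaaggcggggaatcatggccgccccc
CHCHD3: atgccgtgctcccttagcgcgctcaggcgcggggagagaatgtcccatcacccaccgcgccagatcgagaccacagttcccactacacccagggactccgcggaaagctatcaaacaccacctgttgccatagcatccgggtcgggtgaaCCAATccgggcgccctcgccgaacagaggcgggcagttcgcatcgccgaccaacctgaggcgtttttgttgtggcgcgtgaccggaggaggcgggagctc

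RefSeq names 55 pseudogenes after 21 of the 46 measured members, among them copies of TOMM22, SAMM50, MTX2, TIMM8A, TIMM8B, GRPEL2, IMMT, CHCHD3, YME1L1 and AFG3L2. Whether their probe sets share sequence with these copies was not tested. The only such copy with a tested probe set of its own, TOMM22P5, stood at 0.03 (limma adjusted p = 0.923).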

How the data were processed

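RNA of 6 samples was measured on whole-transcript arrays, from 100 ng of total RNA per the labels' protocols. The deposited values run from 1.62 to 19.93 and are taken as log2, a scale inferred here and uncertain, since the highest exceed the usual log2 range of a scanner. MAS5 is the only tool in the submitters' processing notes, with no role. The summarization step is not given in the sources used here. Arrays have no read depth, and 3 per group limit the precision. Groups came from the titles.

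Of 70523 probe sets, 2995 control probe sets and then the dimmest 25% of 67528 transcript clusters were left out, and 50646 were tested. Symbols came from the platform annotation, and all 50 listed symbols match RefSeq (GRCh38.p14). Limma 3.58.1 (R 4.3.3) compared the groups with a mean-variance trend, in a two-sided test. P-values were adjusted by Benjamini-Hochberg over the 50646 clusters, with a threshold of 0.05. Confidence intervals (95%) are from the same fit. Ratios of 9 partner pairs were compared by an exact permutation test, two-sided. The fit was tested on simulated data. Figures used matplotlib 3.10.9.

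The members, lists and motifs were chosen with earlier results of these data known. Every member is accounted for. Of the other lists, up to 3 genes that rose most and 3 that fell most among those that passed are named. The pseudogene TOMM22P5 and the markers fall outside this rule. Alternatives were another scaling (array medians, quantile), filter, variance model, the mean of a gene's probe sets, a replicate block and leaving out each array. For the other genes these were added after seeing the data.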

Additional observations from a re-analysis of the deposited data

How the results depend on the processing

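Across 12 other settings the direction of every called member held, 8 of the 14 called members passed in each setting, and 29 of 32 uncalled members passed in none. With array medians centred the median difference went to -0.16 over the members and to -0.032 over all genes (-0.011 with quantile normalization, -0.00373 with the dimmest 50% left out), and the class medians to -0.16 for TOM, -0.24 for SAM, -0.13 for the proteases, -0.047 for fusion and -0.13 for fission. With the dimmest 50% left out, TIM22 rested on 1 gene at -0.34.

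Leaving out 1 array left 2 to 3 members that rose and 7 to 9 that fell (7 without control array 2, control array 3 or mimic array 2), a member median of -0.13 to -0.10, and 2102 to 2703 changed genes (2192 without control array 3 and 2102 without mimic array 2). The protease median ran from -0.118 to -0.0752, fission from -0.138 to -0.063, and fusion from -0.0214 to 0.0255.

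The deviations of same-numbered arrays correlated at 0.14, -0.05 and 0.18, and those of arrays with unlike numbers at -0.23 to 0.12. All of these were weak, and the numbers were not taken as pairs. The replicate block left 12 members called, all 12 among the 14, and 2545 genes. Centring added TIMM17A (adjusted p = 0.0495), CHCHD4 and MFF. The causes were not tested.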
